A study of Saccharomyces cerevisiae with 14 samples.

Results

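Transfer RNAs (tRNAs) carry amino acids to the ribosome and read codons through their anticodon. In yeast they are made by RNA polymerase III from many dispersed genes, trimmed at both ends, given a CCA tail, modified and exported; a minority also have an intron that must be spliced out. The nuclear tRNA genes without an intron skip that splicing step, so their annotated length is close to that of the mature molecule, which is compact, folded and long-lived. The members described here were the tRNA features of the count table that carry no mitochondrial chromosome letter and do not belong to one of the 10 anticodon families with an intron. They numbered 215 genes among 12449 features and fell into 32 families named by anticodon, 31 with a known anticodon for 17 amino acids and 1 listed as tX(XXX). The remaining nuclear tRNA genes were 60 genes with an intron.

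The cells were budding yeast (Saccharomyces cerevisiae) of strain W303U, mating type MATa, carrying can1-100, leu2-3, 112, ade2-1, trp 1-1 and his3-11, 15 in every group. They grew at 30 °C in synthetic medium lacking uracil and leucine. The uracil analogue 4-thiouracil (4tU, 500 µM) was present for 1.5, 2.5 or 5 min, and the RNA that had taken it up was captured through its thiol group. The 3 libraries of a labelling time came from 3 numbered timecourses. The same timecourses gave 3 libraries of total RNA depleted of rRNA, and 2 further libraries were captured from cells given no label. The titles of the label-free samples name timecourses 1 and 3, but their count columns name no timecourse, so which column is which was not decided and they are called the first and second label-free library. Nothing in the labels says whether the timecourses were separate cultures, so p-values measure the spread between these libraries. Counts per library ran from 3618310 to 65173280.

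The members differ in anticodon, in sequence and in how many copies of their sequence the genome holds. The sequences below show the molecules that carried most of the signal or that separate close relatives. All come from RefSeq on build R64, written 5′ to 3′ as the gene's DNA strand, with the anticodon in capitals. The first 3 are single genes for rare anticodons, arginine tRNA HSX1 (chrX:538555-538626, + strand), glutamine tRNA CDC65 (chrXIII:808246-808317, - strand) and threonine tRNA TRT2 (chrXI:46735-46806, - strand).
HSX1, tR(CCU)J: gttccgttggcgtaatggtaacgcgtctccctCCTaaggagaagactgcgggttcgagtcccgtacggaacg
CDC65, tQ(CUG)M: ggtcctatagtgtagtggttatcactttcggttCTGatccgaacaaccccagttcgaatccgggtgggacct
TRT2, tT(CGU)K: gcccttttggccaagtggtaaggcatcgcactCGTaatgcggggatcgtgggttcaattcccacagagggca

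The next sequences show relatives inside a family. tE(UUC)M (chrXIII:290801-290872, + strand) differs from the 13 identical tE(UUC) genes, such as tE(UUC)B (chrII:645167-645238, + strand), at 1 position, T67G, counted from 1 at the 5′ end of the gene. tR(ACG)J (chrX:233939-234011, + strand) differs from the 5 identical tR(ACG) genes (for example chrIV:619969-620041, - strand) by A43G and A57G. The methionine anticodon has an initiator sequence, used to start proteins (5 genes, for example chrIII:149920-149991, + strand), and an elongator sequence (5 genes, for example EMT1, chrIV:1175829-1175901, + strand).
tE(UUC)M: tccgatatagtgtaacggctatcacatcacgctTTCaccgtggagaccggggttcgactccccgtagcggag
tE(UUC)B: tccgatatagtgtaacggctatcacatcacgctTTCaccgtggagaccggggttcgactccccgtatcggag
tR(ACG)J: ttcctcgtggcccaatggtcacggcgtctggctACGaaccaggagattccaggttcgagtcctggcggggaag
tR(ACG), 5 genes: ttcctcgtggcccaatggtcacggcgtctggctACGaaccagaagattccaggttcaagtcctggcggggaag
tM(CAU) initiator: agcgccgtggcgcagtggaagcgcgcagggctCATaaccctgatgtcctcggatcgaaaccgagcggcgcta
tM(CAU) elongator: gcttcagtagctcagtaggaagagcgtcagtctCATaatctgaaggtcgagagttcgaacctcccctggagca

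The members held 42 distinct sequences, of 71 to 100 nt with a median of 72 nt where the files gave a length. Only 15 genes had a sequence found once among the reference's nuclear tRNA genes. T, the position at which 4tU can enter, made up between 13.9% (initiator methionine) and 33.3% of a sequence. The motif GGTTCGA, searched on the gene strand only, was in 124 of 215 members (57.7%) and in 137 of all 275 nuclear tRNA genes (49.8%); the match is a description of letters. The gene listed as tX(XXX)D, of 100 nt, had the same sequence as 1 locus that the reference annotates with 2 exons.

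The labelled and total RNA libraries of timecourse 1 stood apart before any comparison. Its 1.5, 2.5 and 5 min libraries held 2, 4 and 1 counts over all 215 members and its total RNA held 0 of 3148261 counts outside rRNA, where 3 counts is the limit a count of 0 allows. In the other 10 libraries the members held between 65413 and 1353227 counts. These include both label-free libraries, with 244438 and 521365 counts, so the label-free library titled as timecourse 1 did not share the gap, whichever column it is. The gap followed feature length and was not particular to tRNA. Among features of 85 nt or less with at least 100 counts in the other libraries, all 181 of up to 75 nt, all 20 of 76 to 80 nt and 28 of the 29 of 81 to 85 nt were at 0 in the labelled and total RNA libraries of timecourse 1. Of 259 features of 111 to 160 nt, 1 was at 0. Nuclear tRNA genes with an intron, had 24566, 52975 and 38344 counts in the labelled libraries of timecourse 1 and 848 in its total RNA. How short molecules came to be missing there was not tested. Levels in labelled and total RNA are therefore given for timecourses 2 and 3, and tests against total RNA with and without timecourse 1.

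**Figure D1:**
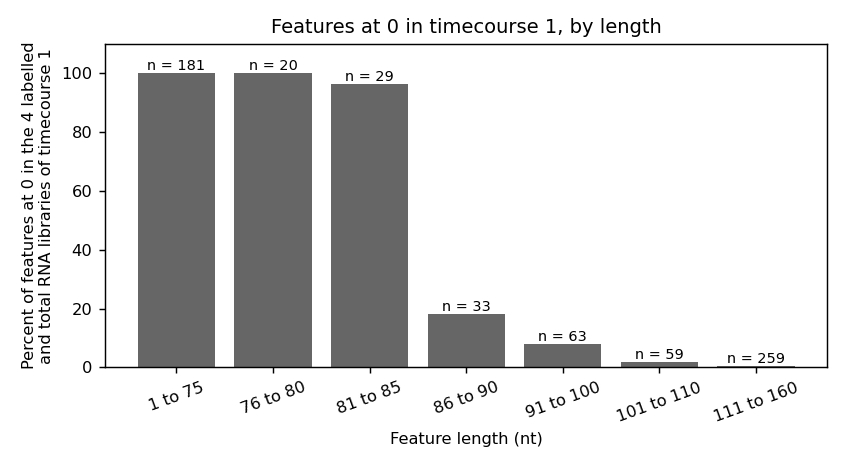
Percent of features (y axis) listed at 0 in the 4 labelled and total RNA libraries of timecourse 1, by feature length in nt (x axis), for features with at least 100 counts in the other libraries, with the number of features over each bar. All 181 features of up to 75 nt were at 0, against 1 of 259 at 111 to 160 nt.

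Intronless tRNA took a smaller share of labelled RNA than of total RNA, and the share was smallest at the shortest label. Of counts outside rRNA, timecourses 2 and 3 gave 0.470% and 0.909% after 1.5 min of label. They gave 1.13% and 1.62% after 2.5 min, and 1.02% and 1.67% after 5 min. In total RNA they gave 2.13% and 2.72%, above each of these 6 labelled libraries. The mean was 0.690% ± 0.310 (SD, n = 2) at 1.5 min and 2.43% ± 0.414 (SD, n = 2) in total RNA. With timecourse 1 included these means were 0.460% ± 0.455 and 1.62% ± 1.43 (SD, n = 3). The label-free libraries held 1.35% and 8.57%, so their share ranged from within that of the labelled libraries to above that of total RNA. These are shares within each library and do not measure how much RNA the capture carried without label. rRNA took 51.2% and 55.4% of all counts in the label-free libraries, 2.65% in total RNA of timecourse 2 and 28.7% in that of timecourse 3; the part of rRNA in these shares was not tested.

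Outside timecourse 1, labelled libraries held less intronless tRNA for each count of intron-containing tRNA than total RNA and label-free libraries did. The share of intron-containing tRNA was 0.343% and 0.637% with 1.5 min of label in timecourses 2 and 3, then 1.74% and 1.40% with 2.5 min and 1.57% and 1.93% with 5 min. In total RNA it was 0.317% and 0.838% and without label 0.513% and 0.860%, so it was above total RNA at the later times while the intronless share stayed below it. Intronless tRNA had 1.37 and 1.43 counts for each count of intron-containing tRNA at 1.5 min in timecourses 2 and 3. The ratio was 0.649 and 1.16 at 2.5 min, and 0.650 and 0.865 at 5 min. It was 6.73 and 3.24 in total RNA and 2.63 and 9.97 without label. All 6 labelled libraries lay below all 4 total RNA and label-free ones. In timecourse 1 the ratio was at most 8.14e-05.

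**Figure D2:**
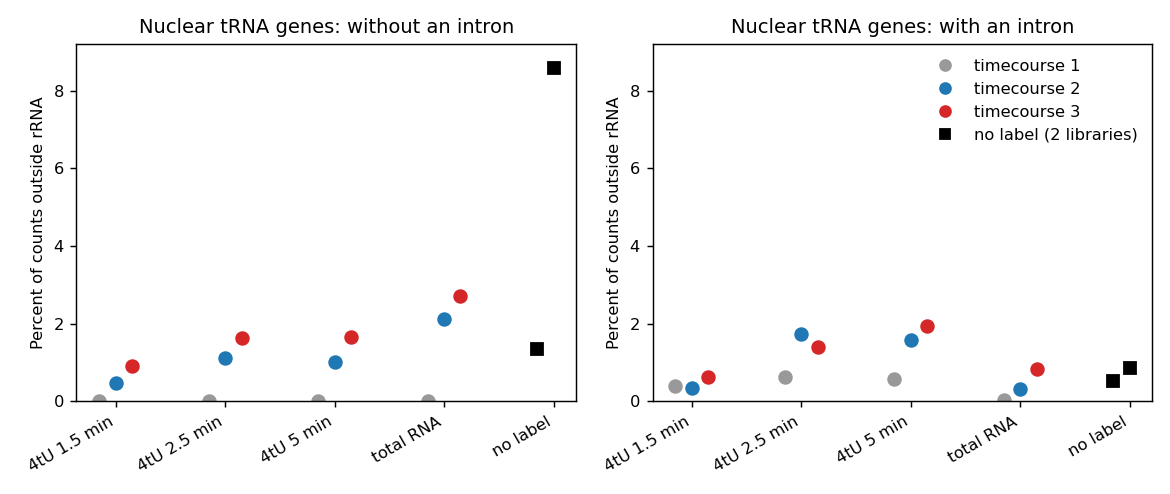
Percent of counts outside rRNA (y axis) from nuclear tRNA genes without an intron (left) and with one (right), 1 point per library, by group (x axis) and timecourse; squares are the label-free libraries. Without an intron, timecourse 1 lies at 0 and total RNA of timecourses 2 and 3 (2.13% and 2.72%) lies above the labelled libraries.

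Single-gene families led in counts in all 10 libraries with tRNA counts. Whether reads that match several identical genes were counted is not stated, and its part in this order was not tested. tQ(CUG), tT(CGU) and tR(CCU) together took from 46.4% to 58.9% of the members' counts, and one of them was the highest family in each of the 10 libraries. Per kb of gene, their mean levels over the 6 labelled libraries of timecourses 2 and 3 were 28551 CPM for tQ(CUG), 27749 CPM for tT(CGU) and 23451 CPM for tR(CCU), where CPM is the count scaled to 1000000 counts outside rRNA. tT(UGU), with 4 genes, and tQ(UUG), with 9, followed at 12212 and 9610 CPM per kb. The lowest were tV(UAC) at 88.3, tX(XXX) at 48.2 and tP(AGG) at 24.6 CPM per kb. The 5 single-gene families with a known anticodon, which also include tL(GAG) and tR(CCG), took from 53.7% to 63.7% of the members' counts.

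CDC65, the only glutamine tRNA with anticodon CUG, had 575 and 827 CPM at 1.5 min in timecourses 2 and 3. It had 2449 and 2259 CPM at 2.5 min, 2157 and 4067 CPM at 5 min, and 5891 and 5201 CPM in total RNA. Both timecourses were lowest at 1.5 min and highest in total RNA; the label-free libraries had 4636 and 7729 CPM. HSX1, an arginine tRNA, had 1271 and 1925 CPM at 1.5 min, 1995 and 1773 CPM at 2.5 min, and 1870 and 1298 CPM at 5 min. Its total RNA values were 4717 and 2459 CPM and its label-free values 3126 and 25056 CPM, so the labelled libraries lay close together and below all of the others. TRT2, a threonine tRNA, had 828 and 2078 CPM at 1.5 min, 1407 and 3852 CPM at 2.5 min and 1319 and 2503 CPM at 5 min. Its total RNA had 870 and 4961 CPM and its label-free libraries 178 and 12262 CPM, and the groups overlapped.

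**Figure D3:**
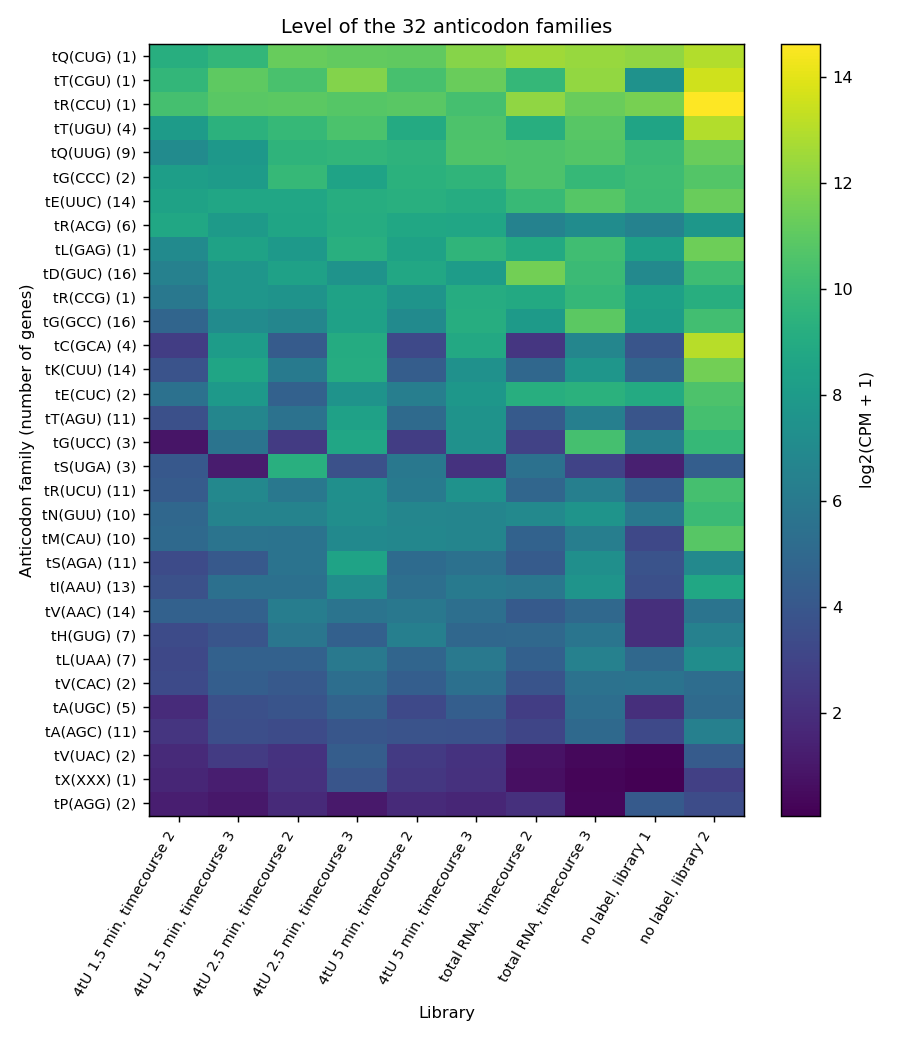
Level of each of the 32 anticodon families (rows, with the number of genes) in the labelled and total RNA libraries of timecourses 2 and 3 and both label-free libraries (columns), as log2(CPM + 1), ordered by mean level per kb in the labelled libraries. tQ(CUG), tT(CGU) and tR(CCU) are at the top, and tC(GCA) is far higher in the second label-free library than in the first.

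Genes with a unique sequence had the higher median level, with wide ranges in each class. The 13 genes that could be tied to a sequence found once held from 67.1% to 83.9% of the members' counts in the 10 libraries, with a median of 456 CPM for a gene's mean over those libraries. The 22 genes with 2 to 4 identical copies had a median of 18.6 CPM, and the 175 with 5 or more had 2.31 CPM and together from 6.65% to 17.7% of counts. Unique genes ranged from 1.48 CPM for tV(AAC)O to 4549 CPM for HSX1, and those with 5 or more copies from 0.0615 to 296 CPM. The sources used here do not say whether reads that match several copies were kept, split or dropped, and its part in these levels was not tested. Values of single copies with identical relatives are therefore uncertain, and sums of families that hold such copies may be too. These gene levels are not divided by length, and the leucine and serine families and tX(XXX) are longer than the median, at 82 to 100 nt.

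Inside several families 1 gene held most counts, and its sequence was not always distinct. tC(GCA)P2, 1 of 4 identical genes, held 82.2% of its family's counts (47.1% to 85.4% by library). tT(AGU)I1, 1 of 11, held 79.4% (66.2% to 94.9%), while tH(GUG)G1, 1 of 7, held 20.6%. A distinct gene did not always lead: tV(AAC)O, unique by A74G, had 1.48 CPM, below its relative tV(AAC)G1 at 11.4 CPM. tR(ACG)J, which differs from its 5 relatives at 2 positions, held 92.3% of the tR(ACG) counts (78.3% to 99.6% by library). tE(UUC)M, which differs from 13 relatives by T67G, held 55.2% of its family's counts (33.1% to 65.6%). tT(UGU), the family with the widest range between copies as a difference in CPM, had a mean of 1068 CPM for tT(UGU)H, a unique sequence. Its 3 identical copies tT(UGU)G1, tT(UGU)P and tT(UGU)G2 had 313, 117 and 82.4 CPM. As a ratio of highest to lowest copy, tT(UGU) had 13.0 and tD(GUC) 4893. tQ(UUG)E2, on chromosome V, had 841 CPM, the fifth highest level of a single gene.

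**Figure D4:**
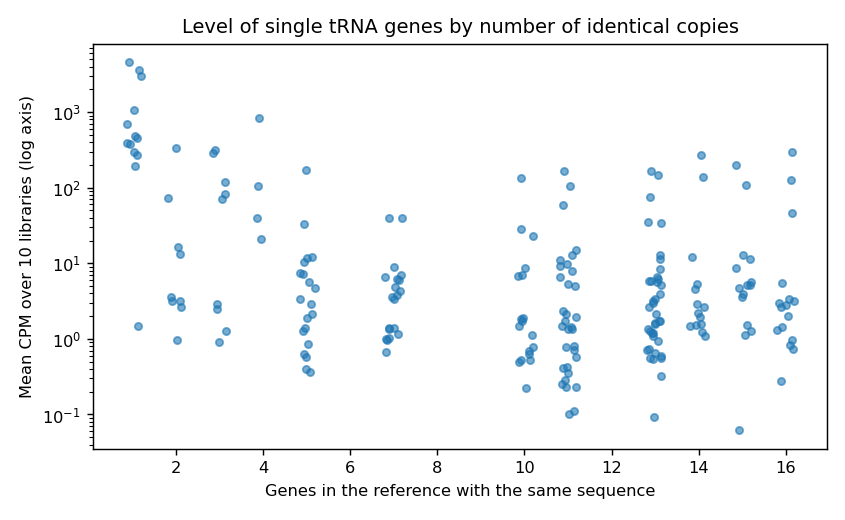
Mean CPM over 10 libraries (y axis, log scale) of 210 member genes against the number of reference genes with the same sequence (x axis, points spread sideways for visibility). Genes with a unique sequence have a median of 456 CPM, against 2.31 CPM for those with 5 or more identical copies.

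At 1.5 min against total RNA, the comparison with the shortest label, most families were lower in labelled RNA, but the test planned for it called none. Label-free captures held 1.35% and 8.57% intronless tRNA, above the 0.470% and 0.909% at 1.5 min in timecourses 2 and 3. How much of the tRNA at 1.5 min was carried through the capture without 4tU was not tested. On the log2(CPM + 1) scale, 22 of 32 families were lower in both timecourses 2 and 3 and 4 were higher in both; of 7073 other features with at least 10 counts in each of these libraries, 4.95% were lower in both and 79.4% higher. The median family difference was -1.25 in timecourse 2 and -1.44 in timecourse 3, where the other features had medians of 1.42 and 1.73. edgeR's quasi-likelihood test over all 3 timecourses, without a block, called 0 of 32 families at an adjusted p of 0.05 and 0 at an unadjusted p of 0.05, and DESeq2 also called 0, while 19.3% of all features tested were called. With the timecourse as a block the same test called 28 families, all lower, against 14.5% of features called lower. Without timecourse 1 it called 9 families without the block (2.72% of features lower) and 21 with it (5.73% of features lower), all lower.

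The count depended on the block. The labels number the timecourses, and libraries of the same number deviated together from their group means (r from 0.363 to 0.890 over 18 pairs of libraries). The blocked fit on timecourses 2 and 3 was added after their counts had been seen. With the block, leaving out timecourse 2 brought the count to 10 families, and leaving out timecourse 3 gave 28, but each of these fits then holds 1 library per group with member counts, so they are no check of stability. The scaling mattered as well: library size alone in place of TMM moved the median of all features from 0.05 to 1.98 on the log2 scale in the planned fit. In the blocked fit of timecourses 2 and 3 it left 11 families lower and 1 higher. No share of all features called in that fit is set beside this count.

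The glutamine families were among those furthest below total RNA. tQ(UUG) had 134 and 230 CPM at 1.5 min against 1509 and 1720 CPM in total RNA, a log2 difference of -5.18 (SE 0.390, edgeR adjusted p = 0.0042) in the blocked fit of timecourses 2 and 3. tQ(CUG), that is CDC65, differed by -4.99 (SE 0.473, edgeR adjusted p = 0.0067) in the same fit. Both were lower at 1.5 min in each of these timecourses, and in the planned fit their edgeR adjusted p-values were 0.242 and 0.295. Glycine tRNA tG(GCC), with 16 identical genes, had 27.4 and 135 CPM at 1.5 min against 251 and 1942 CPM in total RNA. It differed by -5.58 (SE 0.510, edgeR adjusted p = 0.0063) in the blocked fit. Glycine tRNA tG(UCC) had 0.863 and 50.4 CPM against 6.59 and 1266 CPM and differed by -6.04 (SE 0.844, edgeR adjusted p = 0.0157) in that fit; its difference of -6.99 in the planned fit became 0.13 without total RNA of timecourse 3. Aspartate tRNA tD(GUC) had 87.4 and 206 CPM against 2983 and 998 CPM and differed by -5.51 (SE 0.718, edgeR adjusted p = 0.0132). These log2 values are relative to the bulk of features, which TMM scaling centres; on CPM outside rRNA the same families differed by less.

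A few families did not follow. tR(ACG), an arginine tRNA, had 423 and 258 CPM at 1.5 min and 386 and 531 CPM at 2.5 min, against 91.7 and 142 CPM in total RNA. Its labelled levels lay above both total RNA values and above the label-free values of 91.5 and 219 CPM. Relative to the bulk of features its log2 difference was -0.42 (SE 0.449, edgeR adjusted p = 0.574, timecourses 2 and 3 with the block), so on that scale it did not pass the test; the planned value of -0.58 became 1.66 with library-size scaling. tV(UAC), a valine tRNA, had 2.44 and 5.03 CPM at 1.5 min against 0.757 and 0.328 CPM in total RNA, and tX(XXX) had 2.16 and 1.45 CPM against 0.583 and 0.197 CPM. These are low levels, and neither family passed the test in any of these fits (blocked edgeR adjusted p = 0.725 and 0.892).

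**Figure D5:**
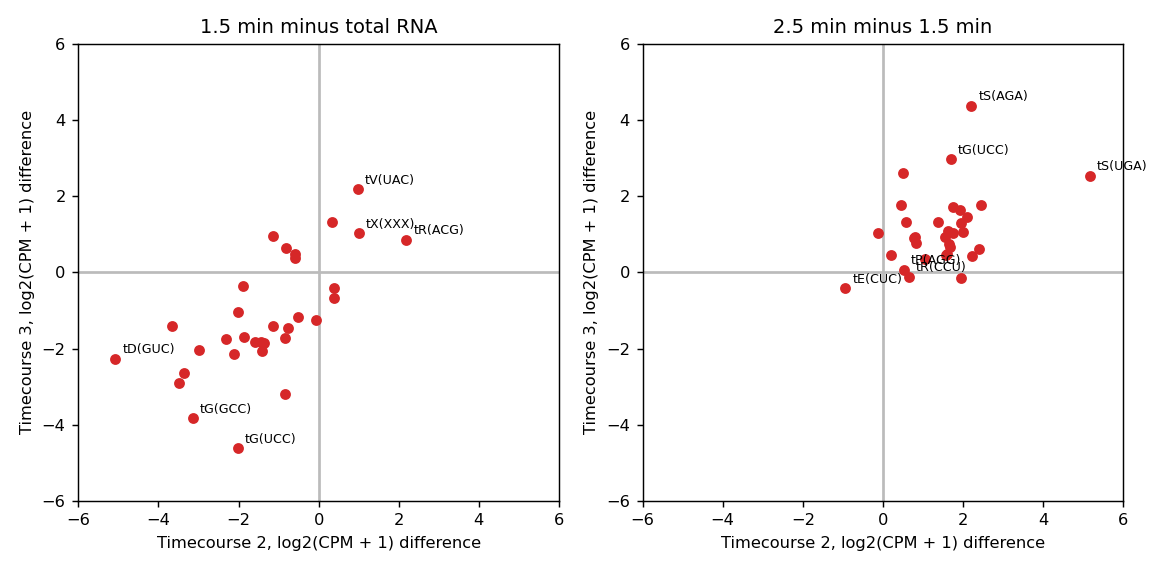
Difference in log2(CPM + 1) for each of 32 families in timecourse 2 (x axis) and timecourse 3 (y axis), at 1.5 min minus total RNA (left) and 2.5 min minus 1.5 min (right), with 6 families named in each. Left, 22 families lie below 0 in both timecourses; right, 28 lie above 0 in both.

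At the later labelling times the position against total RNA depended on the scale. On CPM outside rRNA, 13 of 32 families were lower and 11 higher in both timecourses at 2.5 min, where 4.5% of other features were lower in both and 79.3% higher. At 5 min 15 were lower and 8 higher, where 5.03% of other features were lower in both and 76.3% higher. Relative to the bulk of features, the planned edgeR test called 0 of 32 at both times and none at an unadjusted p of 0.05, beside 15.9% of features called at 2.5 min and 12.1% at 5 min; DESeq2 called 0 at both. With the timecourse block edgeR called 17 families at each time, all lower, against 13.8% and 12.2% of features called lower. On timecourses 2 and 3 with the block it called 13 at each time, all lower, against 5.33% and 4.39% of features. Without the block, on timecourses 2 and 3, it called 3 families at 2.5 min (1.48% of features lower) and 0 at 5 min (0 of the features lower). With library-size scaling, the blocked fit of these timecourses called 4 families lower and 3 higher at 2.5 min, and 1 higher at 5 min, so the direction of these counts holds only relative to the bulk of features. These library-size counts also have no share of all features beside them. tE(CUC), a glutamate tRNA, was among the 3 families with the lowest planned log2 differences at both times, with 22.7 and 186 CPM at 2.5 min and 77.9 and 221 CPM at 5 min against 579 and 654 CPM in total RNA. tC(GCA), a cysteine tRNA, had 8.80 and 463 CPM at 5 min against 4.11 and 108 CPM in total RNA. Relative to the bulk of features its log2 difference was 0.02 in the planned fit (edgeR adjusted p = 0.996) and -0.18 with the block (edgeR adjusted p = 0.780), and at 1.5 min the block over all 3 timecourses called it lower at -1.19 (edgeR adjusted p = 0.0324).

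Across the labelling times, intronless tRNA was higher at 2.5 min than at 1.5 min, and families were evenly divided between 2.5 and 5 min. In timecourses 2 and 3, 28 of 32 families were higher at 2.5 min than at 1.5 min in both, against 28.8% of other features. At 5 min 28 were again higher than at 1.5 min in both, against 27% of other features. Between 2.5 and 5 min 10 families were higher and 10 lower in both, with 18.7% of other features higher in both and 48.6% lower. The median family difference from 1.5 to 2.5 min was 1.61 in timecourse 2 and 0.98 in timecourse 3 on the log2(CPM + 1) scale, where other features had medians of 0.01 and -0.11. edgeR called 0 of 32 families in each of these comparisons in the planned form, with 0 at an unadjusted p of 0.05, and 0 of all features passed; DESeq2 also called 0 families. With the block edgeR still called 0, with 20 families at an unadjusted p of 0.05 for 2.5 against 1.5 min and 21 for 5 against 1.5 min. The share of all features at that unadjusted p is not set beside these counts, so they are not read as particular to the families. The comparisons that start from or end at 2.5 min were added after the values had been seen.

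The serine families had the highest planned log2 differences from 1.5 to 2.5 min, and their values differed between timecourses. tS(UGA) had 15.7 CPM at 1.5 min, 601 CPM at 2.5 min and 58.2 CPM at 5 min in timecourse 2. In timecourse 3 it had 1.24, 12.1 and 3.64 CPM. tS(AGA) had 9.63, 48.2 and 34.4 CPM in timecourse 2 and 16.4, 361 and 44.2 CPM in timecourse 3. Both were highest at 2.5 min in each timecourse. The histidine tRNA tH(GUG) had 9.42, 53.5 and 80.8 CPM in timecourse 2 and 14.1, 22.1 and 29.8 CPM in timecourse 3, higher at each later time in both. The lysine tRNA tK(CUU) had 12.8, 62.9 and 19.5 CPM in timecourse 2 and 398, 539 and 169 CPM in timecourse 3, and so differed more between timecourses than between times.

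The methionine family holds initiator and elongator genes, which share an anticodon but differ in sequence. tM(CAU) as a whole had 31.8 and 49.2 CPM at 1.5 min, 48.0 and 126 CPM at 2.5 min, 111 and 100 CPM at 5 min and 24.1 and 78.5 CPM in total RNA. Initiator genes gave 18.7% and 10.2% of the family's counts at the shortest label. Their part was 11.3% and 8.57% with 2.5 min of 4tU, then 7.57% and 14.4% with 5 min. In total RNA they gave 3.40% and 6.02%, and without label 1.31% and 0.461%. All 6 labelled libraries were above all 4 total RNA and label-free ones. The counts behind these shares are small: 83 and 97 initiator counts at 1.5 min and 52 and 72 in total RNA. The initiator sequence holds fewer T (13.9%) than the elongator sequence (21.9%).

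The label-free libraries, which measure RNA carried through the capture without 4tU, differed widely from each other for tRNA. tC(GCA) had 14.1 CPM in one and 8635 CPM in the other, and tM(CAU) had 8.44 and 1818 CPM. The planned edgeR test called 0 of 32 families at 1.5 min against no label, with 4 at an unadjusted p of 0.05, where 5.18% of features were called. It called 0 of 32 at 5 min against no label, with 1 at an unadjusted p of 0.05, where 1.4% of features were called. Between label-free and total RNA it called 0, with 0 at an unadjusted p of 0.05, and 0 of all features; DESeq2 called 0 families in all 3. The median family difference was -4.48 at 1.5 min and -2.94 at 5 min against no label, on the log2 scale of the planned fit. tV(AAC), a valine tRNA, was among the 3 families with the highest difference in that fit, with 23.1 and 22.9 CPM at 1.5 min and 3.14 and 49.5 CPM without label.

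With 1 row for each gene, 179 of the 215 members passed the filter on low counts in the fit of labelled and total RNA, and 199 in the fit with the label-free group. At 1.5 min against total RNA 2 genes were lower, where 11.4% of features were called lower. tE(UUC)B fell by 4.83 (SE 1.55, edgeR adjusted p = 0.04999) and tQ(UUG)D1 fell by 5.47 (SE 1.73, edgeR adjusted p = 0.0480) on the log2 scale. They rest on few counts: tE(UUC)B had 2 and 6 counts at 1.5 min and 70 and 34 in total RNA in timecourses 2 and 3. tQ(UUG)D1 had 2 and 1 counts against 43 and 26. With the block 69 genes were lower, against 14.7% of features. At 1.5 min against no label tG(GCC)G1 fell by 5.93 (SE 1.54, edgeR adjusted p = 0.0441) and tK(CUU)C fell by 7.62 (SE 2.00, edgeR adjusted p = 0.0463), where 3.35% of features were called lower. tK(CUU)C had 0 and 71 label-free counts, so its value rests on 1 library. All 4 genes share their sequence with at least 6 other genes. Without timecourse 1 the edgeR adjusted p-values were 0.123 for tE(UUC)B, 0.136 for tQ(UUG)D1, 0.246 for tG(GCC)G1 and 0.268 for tK(CUU)C, so none of the 4 passed.

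Families kept much the same order of levels within a timecourse. Over the 32 families, log2(CPM + 1) levels of libraries from the same timecourse correlated at Pearson's r from 0.883 to 0.969, and those of different timecourses at r from 0.700 to 0.838. Pairs with a label-free library ran from r of 0.644 to 0.940. The highest was between the second label-free library and the 1.5 min library of timecourse 3. These are descriptions across families that share libraries and depth.

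Genes that make and use tRNA were set beside the members in the per-gene fit at 1.5 min against total RNA, where 11.4% of all features were lower and the median of all features was 0.03 on the log2 scale. Of other RNA polymerase III transcripts, 3 of 7 tested were lower and 0 higher, with a median of -3.11. SCR1, which forms the signal recognition particle with its proteins, fell by 3.37 (SE 0.777, edgeR adjusted p = 0.0120), snR6, the U6 spliceosomal RNA, fell by 2.73 (SE 0.764, edgeR adjusted p = 0.0292) and RPR1, the RNA of RNase P, fell by 1.74 (SE 0.467, edgeR adjusted p = 0.0245). Of 21 cytosolic aminoacyl-tRNA synthetases, which load amino acids onto tRNA, 14 were lower and 0 higher, with a median of -1.37. YHR020W, the prolyl enzyme, fell by 2.35, FRS2, a subunit of the phenylalanyl enzyme, fell by 2.22, and GUS1, the glutamyl enzyme, fell by 2.16 on the log2 scale.

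Few genes of tRNA synthesis and maturation passed the test. Of 27 subunits and factors of RNA polymerase III, 1 was lower, RPB8, a subunit shared by the 3 nuclear polymerases, by a log2 difference of -1.54 (SE 0.359, edgeR adjusted p = 0.0126). Of 14 end-processing and export genes, POP6 fell by 4.09 and POP3 rose by 2.24; both encode proteins of RNase P and RNase MRP. Of 49 modification genes, URM1 fell by 1.42 and IKI3 fell by 0.79; both act on the wobble uridine. The lists overlap the members in pathway only and share the same total RNA libraries.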

How the data were processed

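RNA of 14 yeast libraries was measured. The submitters' processing notes list STAR 2.4.2a and build R64 without saying how each was used. Whole-number read counts per feature were deposited by the authors, without normalisation per the file headers; strand setting and treatment of reads with several matches were not found in the labels or headers. RPKM values deposited by the authors, per the file headers, served only to recover feature lengths, scaled on 41 tRNA genes of known length; an earlier calibration on protein-coding genes failed and was replaced. Of 12549 rows, 100 repeats were removed. The 2 label-free RPKM columns were not used. Label-free columns name no timecourse; for 1 label-free sample the source label reads as total RNA and the title set the group.

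tRNA genes were summed by anticodon. edgeR 4.0.16 (R 4.3.3) tested the whole table: filterByExpr minimum count 10, TMM, quasi-likelihood F test, Benjamini-Hochberg, threshold 0.05. DESeq2 1.42.0 was an alternative. Comparisons among labelled and total RNA used 4 groups, and those with the label-free group 5. The planned fit had no block. Timecourse numbers come from the labels and paired the libraries (correlations of 0.363 to 0.890 over 18 pairs), so blocked values are given. CPM are per 1000000 counts outside rRNA, with a pseudocount of 1 CPM on the log2 scale. Sequences are RefSeq's; all 215 reference genes were placed, after the rule for finding the anticodon was relaxed once. The members and lists were chosen with earlier results of these data known. Named families are the 3 highest and 3 lowest by log2 fold change where none passed, the 5 highest and 3 lowest per kb, and methionine. Named genes are the 5 highest, those past the threshold and the copies of the family with the widest range; at most 3 genes are named per list. Scripts were tested on simulated data.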

Additional observations from a re-analysis of the deposited data

How the results depend on the processing

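The planned fit called 0 of 32 families in each comparison. The counts below show how calls moved with the setting, and they are given without the share of all features called. Against total RNA at 1.5, 2.5 and 5 min, the replicate block called 28, 17 and 17 families. With RLE size factors it called 28, 17 and 17, with library size only 17, 15 and 11, and without total RNA of timecourse 1 it called 28, 16 and 16. Blocked counts were 10, 1 and 0 without timecourse 2 and 28, 19 and 17 without timecourse 3; fits without timecourse 2 or 3, here and below, hold member counts in 1 library per labelled or total RNA group and so compare single libraries. On timecourses 2 and 3 the block gave 21, 13 and 13, and 12, 7 and 1 with library size only. Among labelled times the block called 18 families (5 against 1.5 min) and 1 (2.5 against 1.5 min) without timecourse 3, and 1 (5 against 1.5 min) without total RNA of timecourse 1. Blocked settings other than the plain block were chosen after seeing the data. Unblocked library size only called 1 family at 2.5 min. One-left-out counts ran from 0 to 9, 0 to 3 and 0 to 0 against total RNA and from 0 to 1 for 1.5 min against no label.

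With 1 row for each gene, 2 genes were called at 1.5 min against total RNA and 2 against no label. The first count was 1 with library size only or no filter, 11 by DESeq2, 69 with the block (69 with RLE, 39 with library size only), 31 with the block on timecourses 2 and 3 (22 with library size only), 63, 13 and 86 with the block without total RNA of timecourse 1, timecourse 2 or timecourse 3, and 0 to 10 with 1 left out. The second was 21 by DESeq2 and 0 to 15 with 1 left out. For 5 against 1.5 min it was 1 and 38 with the block, without total RNA of timecourse 1 and without timecourse 3. For 5 min against no label it was 1 with library size only, 6 by DESeq2 and 0 to 3 with 1 left out, and for no label against total RNA 0 to 2. The mean over all 3 total RNA libraries was 3.72% of protein-coding counts, and 5.58% over timecourses 2 and 3 (3.97% and 7.19%).

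Signs reversed as follows on the log2 scale; the cause was not tested. At 1.5 min against total RNA, library size only gave 1.66 for tR(ACG) and 1.89 for tX(XXX), which was also 0.071 with RLE, 0.19 by DESeq2 and 0.35 with the block. Against no label, library size only gave 1.50 for tR(ACG), 0.15 for tS(UGA) and 0.17 for tV(AAC). With 1 timecourse or library left out, values at 1.5 min against total RNA ran from -7.57 to 0.13 for tG(UCC), -1.51 to 0.44 for tR(ACG), -0.56 to 1.18 for tV(UAC) and -0.31 to 0.91 for tX(XXX). At 5 against 1.5 min they ran from -0.92 to 0.85 for tK(CUU), -0.26 to 0.82 for tR(CCU) and -0.13 to 1.18 for tV(UAC). Against no label they ran from -11.58 to 0.53 for tC(GCA), -4.94 to 0.28 for tT(CGU), -2.75 to 0.17 for tV(AAC), -3.88 to 1.78 for tV(UAC), -3.26 to 2.399 for tX(XXX) and -8.63 to 2.31 for the gene tK(CUU)C; each upper value is without the second label-free library. Among values for single families and genes, 353 kept their direction and side of the threshold, 21 lost a call, 14 gained one and 24 changed sign.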
